A study of Mus musculus with 38 samples.

Results

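Irf4, Irf8, Zbtb46, Batf, Batf3, Id2, Klf4 and Bcl6 encode 8 transcription factors known for their roles in the fate of dendritic cells (DC), monocytes and macrophages. They were chosen by name, and each is read by 1 probe set, so they are 8 of the 19937 genes measured by an Affymetrix Gene 1.0 ST array. Their levels were followed over 38 arrays of 13 populations sorted by flow cytometry from wild-type female C57BL/6 mice, 6 weeks old. Every population is represented by 3 arrays, made from separate pools of mice, but P1 after DNFB has only 2. DNFB (2,4-dinitrofluorobenzene) is a contact sensitiser, of which 10 µl at 0.5% in acetone and olive oil was applied 3 days before harvest, and steady-state mice were untreated.

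The lymph node cells came from cutaneous nodes and were sorted as CD11c+ with high MHC class II, CD11b+ and CD24-. They are the CD64+ Ly6C+ cells after DNFB, which the title calls non-DC, the cell type field a migratory dermal monocyte and the description a migratory DC, and the CD64- Ly6C- migratory DC after DNFB and at steady state. Dermal cells came from ear skin and were CD11b+ and CD24-. The dermal DC (Ly6C- CD64- MHC class II+) were taken after DNFB and at steady state. The macrophages P5 (MHC class II+) and P4 (MHC class II-), both CD64+ Ly6C- CCR2-, and the monocyte population P3 (CD64+, Ly6C low, CCR2+, MHC class II+) were taken at steady state alone. The monocyte populations P2 (CD64+, Ly6C high, CCR2+, MHC class II+) and P1 (CD64 low, Ly6C high, CCR2+, MHC class II-) were taken after DNFB and at steady state. Blood monocytes (Ly6C high, CD11b+) were taken at steady state.

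As background, DC, monocytes and macrophages share progenitors, and a small set of transcription factors sets which of these cells arises. IRF4 and IRF8 are related factors that bind poorly alone and need partners such as PU.1 or the BATF proteins. In mice, IRF8 with BATF3 is needed for the cross-presenting DC called cDC1, and IRF8 also for monocytes. IRF4 and KLF4 act in the CD11b+ DC called cDC2, where IRF4 is known for its role in migration from skin to node. ZBTB46 marks conventional DC against other myeloid cells. ID2 blocks E proteins such as TCF4 and so opposes the plasmacytoid DC fate, and BCL6 is a repressor known for its roles in germinal centre B cells and in DC.

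Values are deposited log2 intensities after RMA (robust multi-array average), and a difference of 1 is a doubling. Levels of different genes rest on different probes and are not compared. The 24 measured genes of organs not sampled here had a median of 3.81, with 95% of their values under 5.63, which gives the range of background. A difference is not exact where the lower population lies within it. Differences carry a standard error (SE) and a limma p adjusted by Benjamini-Hochberg over 19937 genes, and a gene rose or fell where it was under 0.05. In sorted bulk samples, fewer cells of a type and less RNA per cell cannot be told apart. Several comparisons share a population, so their values are not independent of each other. Shares of all genes refer to adjusted calls. For counts of members with an unadjusted p under 0.05, the share of all genes at that level was not computed. Such counts are descriptions.

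Labels were checked against defining markers. Itgam, which encodes CD11b, stood at 4.25 to 5.07 in the 6 node arrays labelled CD11b+ migratory DC, within the background range, against 8.11 to 9.29 in the node CD64+ arrays and 9.33 to 11.0 in blood and dermis. The RNA therefore goes against the CD11b+ label of the node migratory DC, though Flt3 (9.70 to 10.5) and Ccr7 (11.3 to 11.7) were high in them. These encode a DC growth factor receptor and the receptor that guides cells to nodes. The node CD64+ arrays, titled non-DC, had Flt3 at 10.17, 10.09 and 8.55 and Ccr7 at 11.45, 11.32 and 10.00. P2 after DNFB had 5.85 to 7.57 and 8.49 to 9.32. The part of this in the member differences between node CD64+ cells and P2 was not tested. Fcgr1, which encodes CD64, was 7.98 in dermal DC after DNFB and 5.94 at steady state, though both were sorted as CD64-. In the node CD64+ arrays it was 7.83, 7.59 and 9.27, which overlapped the dermal DC after DNFB (7.95, 7.71 and 8.26). It was 4.29 to 4.92 in node DC arrays. Fcgr1 RNA thus separated node CD64+ cells from node DC, but not from dermal DC after DNFB. The mean of 14 keratinocyte genes was 5.02 to 7.40 in dermal arrays and 4.15 to 4.57 in node and blood arrays, and that of 12 fibroblast genes reached 10.2 in steady-state P1 replicate 2. Among the node CD64+ arrays, replicate 3 stood apart for several members. Its Id2 was 9.43, against 10.7 and 10.8 in the other two, and its mean of 20 conventional DC core genes was the lowest, at 7.32.

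Promoter sequences from RefSeq (GRCm38.p6), 250 bases before to 50 after a listed start, were available for all 8 members. They were searched on both strands for an IRF element (GAAANNGAAA, in 3.44% of 32851 promoters), an AP-1 site of the kind bound by BATF with JUN (TGANTCA, 7.81%), a KLF box (GGGNGGGGC, 17.0%) and the spaced pair TTCNNNGAA bound by STAT and BCL6 proteins (8.3%), with overlapping matches counted. The 4 promoters below are shown because the Irf8, Batf3 and Klf4 windows hold the most matches and the Zbtb46 window the one AP-1 site among the 8 members. Capitals mark every match. The Irf8 window (chr8:120736108-120736407, + strand) holds 2 STAT/BCL6 pairs and 1 KLF box, the Batf3 window (chr1:191098164-191098463, + strand) 3 KLF boxes, of which 2 overlap, and 1 pair, the Klf4 window (chr4:55532426-55532725, - strand) 4 KLF boxes, of which 2 overlap, and the Zbtb46 window (chr2:181424339-181424638, - strand, at a start inside the gene) 1 AP-1 site.
Irf8: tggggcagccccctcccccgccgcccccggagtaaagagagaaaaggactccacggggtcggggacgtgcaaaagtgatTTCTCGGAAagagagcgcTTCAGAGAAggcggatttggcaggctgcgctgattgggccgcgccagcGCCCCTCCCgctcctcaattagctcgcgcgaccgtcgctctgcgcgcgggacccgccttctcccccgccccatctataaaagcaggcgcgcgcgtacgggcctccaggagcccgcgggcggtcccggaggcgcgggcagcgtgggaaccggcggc
Batf3: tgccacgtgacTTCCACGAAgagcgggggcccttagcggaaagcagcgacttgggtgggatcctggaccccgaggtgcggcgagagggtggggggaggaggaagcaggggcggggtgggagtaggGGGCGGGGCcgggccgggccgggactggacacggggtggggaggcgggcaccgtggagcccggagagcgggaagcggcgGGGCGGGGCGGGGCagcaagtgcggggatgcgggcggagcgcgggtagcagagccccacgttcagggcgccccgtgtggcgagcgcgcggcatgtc
Klf4: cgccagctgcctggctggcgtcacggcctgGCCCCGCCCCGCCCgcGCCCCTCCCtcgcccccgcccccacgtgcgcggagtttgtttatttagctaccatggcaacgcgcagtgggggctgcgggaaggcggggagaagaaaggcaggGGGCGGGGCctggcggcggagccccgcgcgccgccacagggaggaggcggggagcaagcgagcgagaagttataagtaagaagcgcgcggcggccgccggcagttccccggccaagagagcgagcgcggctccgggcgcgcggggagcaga
Zbtb46: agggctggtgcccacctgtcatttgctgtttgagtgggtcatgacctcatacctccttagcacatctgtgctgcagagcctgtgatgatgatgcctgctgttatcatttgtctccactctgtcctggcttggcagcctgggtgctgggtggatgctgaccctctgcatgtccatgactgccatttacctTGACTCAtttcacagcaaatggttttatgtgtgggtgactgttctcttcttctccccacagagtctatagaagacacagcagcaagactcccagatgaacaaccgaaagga
Neither the Irf4 window (chr13:30748983-30749282) nor the Batf window (chr12:85686470-85686769) held any of the 4 motifs, Id2 held 1 KLF box and Bcl6 1 STAT/BCL6 pair, and the IRF element was in none of the 8. Of the 8 windows, 6 were richer in G and C (61.0% to 75.7%) than the median promoter (52.7%), while Zbtb46 and Batf were at 50.7% and 49.7%. A match describes the letters of the window and is not a shown binding site.

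The members varied more across the populations than most genes. They were chosen with earlier results of these data known, and all genes include those within background. Their ranks are therefore a description and not a test. The span of the 13 population means was 4.20 for Irf4, 4.12 for Irf8, 3.22 for Batf3 and 3.19 for Klf4, which put them at percentiles 97.4, 97.3, 94.8 and 94.7 of all genes. Bcl6 (2.34), Batf (2.01), Zbtb46 (1.86) and Id2 (1.76) spanned less, against a median of 0.70 over all genes. Differences between populations made up 97.7% of the variance of Klf4 and 95.3% of that of Irf8, but 73.8% of that of Batf and 71.9% of that of Id2. The plot of the 8 genes by array shows these levels.

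**Figure D1:**
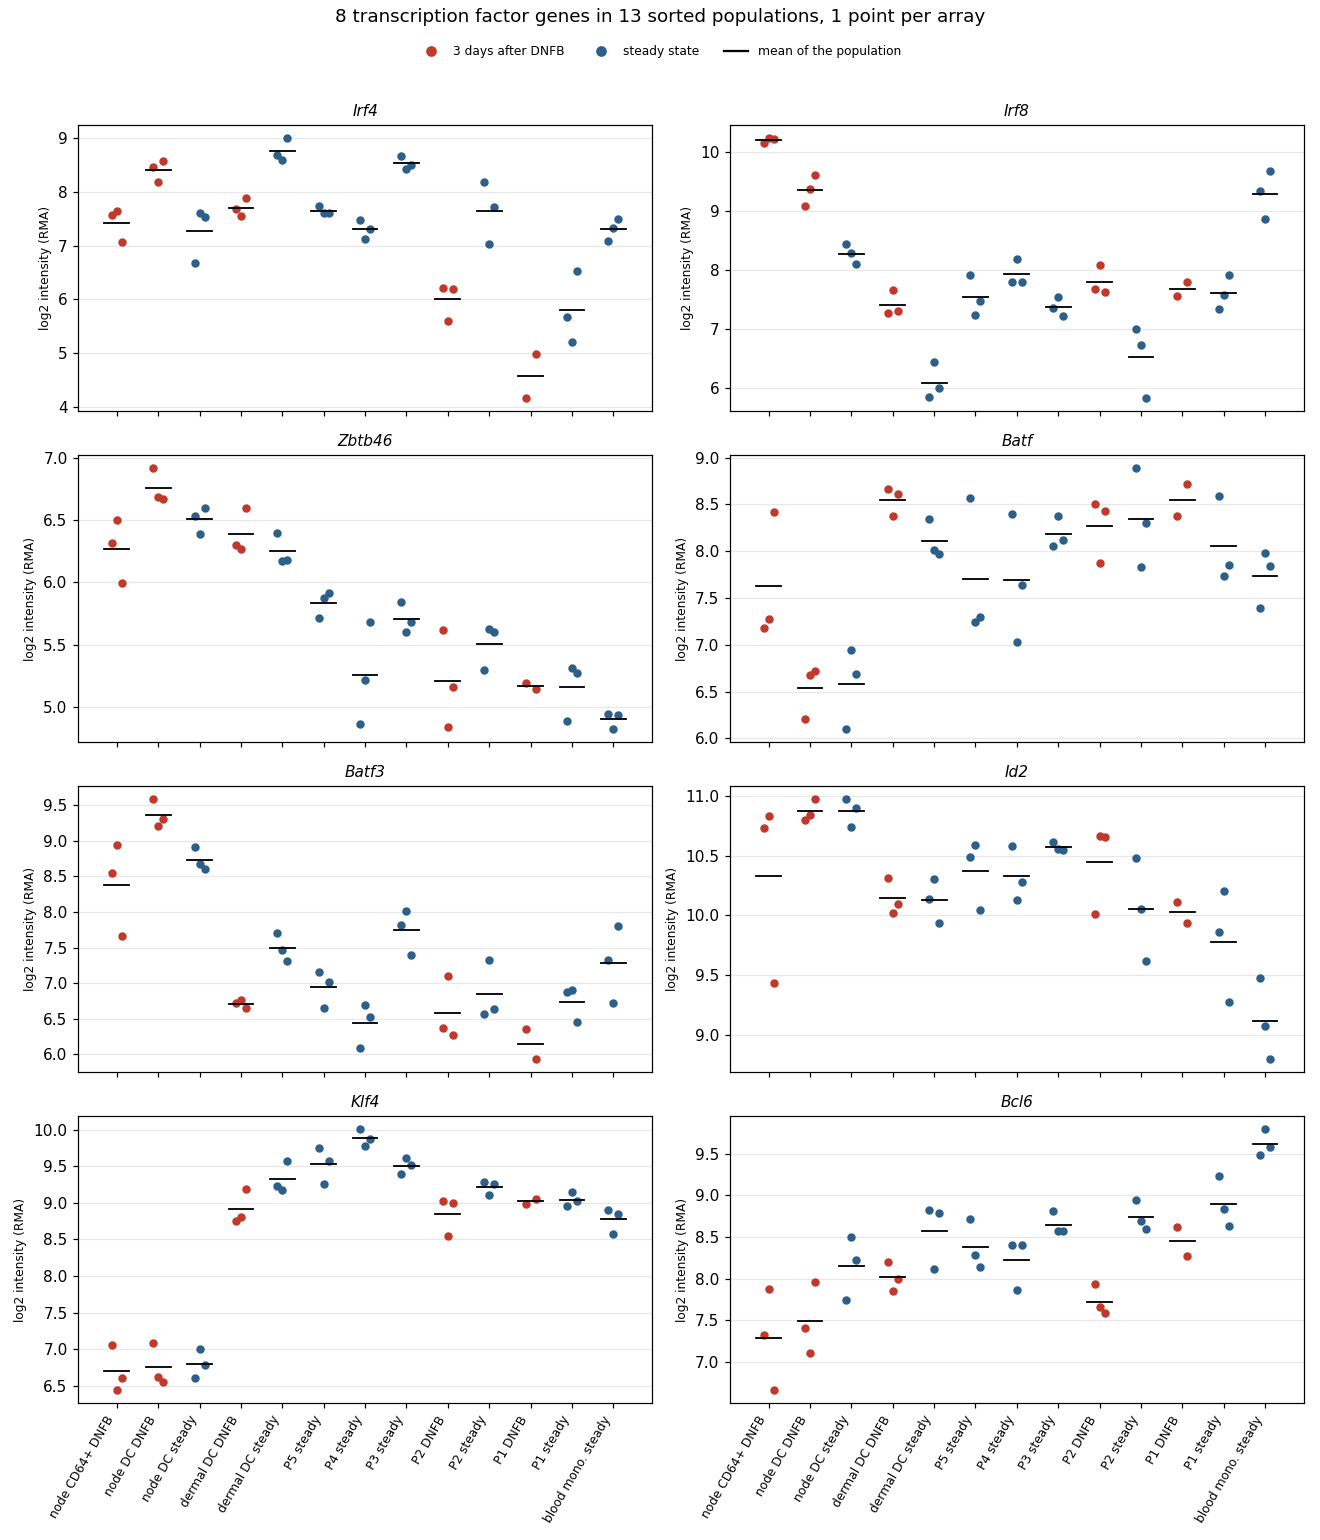
Log2 RMA intensity of each of the 8 genes (y axis, own scale per panel) in each array (points) of the 13 populations (x axis), with the population mean as a bar. Red points are cells taken 3 days after DNFB and blue points steady-state cells. Klf4 lies between 6.44 and 7.09 in all 9 node arrays and between 8.55 and 10.01 in all 29 others, and Irf4 is highest in steady-state dermal DC.

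Irf4 was highest in steady-state dermal DC (8.77 ± 0.21, SD, n = 3) and P3 (8.54 ± 0.12, n = 3), followed by node DC after DNFB (8.41 ± 0.20, n = 3). It was 7.27 to 7.71 in 7 populations, which from the top were dermal DC after DNFB, P5, P2, node CD64+ cells, P4, blood monocytes and node DC at steady state. It was lowest in P2 after DNFB (6.01 ± 0.35, n = 3), P1 (5.80 ± 0.67, n = 3) and P1 after DNFB (4.57, arrays at 4.16 and 4.98). Of the 12 steps between neighbours in this order, the arrays separated in 3, so most neighbours did not differ beyond their spread.

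Irf8 had another order. It was highest in node CD64+ cells (10.20 ± 0.05, n = 3), node DC after DNFB (9.36 ± 0.27, n = 3) and blood monocytes (9.29 ± 0.41, n = 3), then 8.27 ± 0.17 in node DC at steady state. The other dermal populations lay between 7.37 in P3 and 7.92 in P4, and the lowest were P2 (6.52 ± 0.62, n = 3) and dermal DC (6.09 ± 0.31, n = 3) at steady state. The arrays separated in 3 of 12 steps. Over the 13 means the correlation of Irf4 with Irf8 was r = -0.06 (Spearman -0.40), and all 13 share the same normalization.

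Zbtb46 was highest in node DC, at a low signal. Its means were 6.76 and 6.51 in node DC after DNFB and at steady state, 6.39 and 6.25 in dermal DC after DNFB and at steady state, and 6.27 in node CD64+ cells. P5 had 5.84 and P3 5.71, and the other 6 populations, with 4.90 in blood monocytes as the lowest, lay under 5.63, where background and expression cannot be told apart by this probe set. The arrays separated in 2 of 12 steps, one of them between steady-state dermal DC (lowest array 6.17) and P5 (highest array 5.91).

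In dermal P1 against blood monocytes, 2 of 8 members fell and 0 rose, against 12.6% of all genes called. Irf4 was 5.67, 5.21 and 6.53 in P1, against 7.08, 7.34 and 7.49 in blood monocytes, a difference of -1.50 (SE 0.29, adjusted p = 0.0005). Irf8 was 7.34, 7.58 and 7.92 in P1, against 9.33, 8.87 and 9.68 in blood monocytes (-1.68, SE 0.24, adjusted p = 1e-05). The arrays did not overlap for either gene. Bcl6 was 8.90 in P1, against its highest level, 9.62, in blood monocytes (-0.72, adjusted p = 0.066), and the call was made without P1 replicate 1 (-0.89, adjusted p = 0.036). Id2 was 9.78 in P1, against its lowest level, 9.12, in blood monocytes (0.66, adjusted p = 0.12, and 0.92 with adjusted p = 0.041 without P1 replicate 3). With the keratinocyte and fibroblast means as covariates, Irf4 was -0.52 (adjusted p = 0.88) and Irf8 -1.37 (adjusted p = 0.27). These means were far apart between P1 and blood, at 6.16 to 6.95 and 6.64 to 10.2 in P1, against 4.15 to 4.30 and 4.33 to 4.41 in blood, and their part in the result was not tested beyond that fit.

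Between P1 and P2, the Ly6C high cells without and with MHC class II, 2 of 8 members were called, against 2.09% of all genes. Irf4 was 8.19, 7.03 and 7.73 in P2, against 5.67, 5.21 and 6.53 in P1, and rose by 1.85 (SE 0.29, adjusted p = 0.00015). Irf8 was 7.00, 6.73 and 5.82 in P2, against 7.34, 7.58 and 7.92 in P1, and fell by 1.09 (SE 0.24, adjusted p = 0.0096). The 2 genes went in opposite directions, with no overlap of arrays. The Irf8 call was lost without P1 replicate 3 (adjusted p = 0.074) or P2 replicate 3 (adjusted p = 0.11), and both were lost when only these populations were fitted (Irf4 adjusted p = 0.23, Irf8 adjusted p = 0.42).

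Of 7 genes reported to need Irf4 or Klf4 in mouse CD11b+ DC, 6 rose in P2 over P1. The list median was 3.57, against -0.02 for all genes. The list holds Ciita, a regulator of MHC class II genes, and P1 and P2 were sorted apart by MHC class II. The list is thus not independent of the sort. Klf4 itself did not differ (0.18, adjusted p = 0.82), and the part of Irf4 in these rises was not tested. Mgl2, a lectin gene, rose by 6.18 (SE 0.35), and Ccl17, a chemokine gene that draws T cells, by 5.28 (SE 0.30). The lectin gene Cd209a rose by 3.57 (SE 0.30) and Ccl22, the partner of Ccl17, by 3.84 (SE 0.35). Both lectin genes were high in the MHC class II- macrophages P4 too, with Mgl2 at 10.7 to 10.8 and Cd209a at 9.44 to 9.85. In P1, Ccl22 (4.12 to 4.52) was within background and Mgl2 (3.65 to 5.68) and Ccl17 (4.60 to 5.93) were within or just above it, so these 3 differences are not exact. T cell and innate lymphoid cell genes moved with Irf4, and 3 of 8 (Il7r, Cd2 and Gata3) rose in P2 over P1. Their mean was 5.80 to 6.40 in P2 arrays, against 4.90 to 5.29 in P1 arrays, while the T cell receptor complex genes Cd3d and Cd3g stayed within background in both, and their part in the Irf4 difference was not tested. Of 29 other DC and macrophage transcription factors measured, Rbpj, the DNA-binding partner of Notch, rose (0.67, SE 0.15) and 0 fell.

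Between P3 and P2, 0 of 8 members were called by limma, against 0.371% of all genes, and 3 had an unadjusted p under 0.05. Irf4 was 8.68, 8.44 and 8.50 in P3, against 8.19, 7.03 and 7.73 in P2 (0.88, adjusted p = 0.21). Irf8 was 7.35, 7.54 and 7.23 in P3, against 7.00, 6.73 and 5.82 in P2 (0.85, adjusted p = 0.11), and Batf3 was 7.74 against 6.84 (0.90, adjusted p = 0.19). Without P2 replicate 1 the Irf8 difference was 1.09 (adjusted p = 0.031). The 3 differences were positive, with no overlap between the arrays of the populations. Arrays did not overlap for 5 of 8 members in this comparison. The share without overlap over all genes was not computed, so this count cannot show that the members stand out. With 3 against 3 arrays, a permutation test can give no p under 0.1.

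Dermal DC at steady state were set against the CD64+ populations P3, P5 and P4 of the same tissue. Against P3, 1 of 8 members was called, against 1.80% of all genes. Irf8 was 5.84, 6.44 and 5.99 in dermal DC, against 7.35, 7.54 and 7.23 in P3 (-1.28, SE 0.24, adjusted p = 0.0017, and adjusted p = 0.055 when only these populations were fitted). Zbtb46 was 6.40, 6.17 and 6.18 in dermal DC, against 5.85, 5.60 and 5.68 in P3, without overlap (0.54, SE 0.18, adjusted p = 0.14). Irf4 did not separate them, at 8.70, 8.60 and 9.01 in dermal DC, against 8.68, 8.44 and 8.50 in P3.

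Against the MHC class II+ macrophages P5, 2 members were called, against 6.52% of all genes. Irf4 stood at 7.73, 7.62 and 7.62 in P5 and was higher in dermal DC by 1.12 (SE 0.29, adjusted p = 0.013). That call was lost without dermal DC replicate 3 (adjusted p = 0.069) and with the keratinocyte and fibroblast covariates (adjusted p = 0.12). Irf8 stood at 7.91, 7.24 and 7.47 in P5 and was lower in dermal DC (-1.45, SE 0.24, adjusted p = 0.00011). Thus dermal DC had more Irf4 and less Irf8 than these macrophages.

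Against the MHC class II- macrophages P4, 5 members were called, against 9.42% of all genes. Irf4 (7.49, 7.12 and 7.32 in P4) was higher in dermal DC by 1.47 (SE 0.29, adjusted p = 0.00057) and Irf8 (7.79, 8.18 and 7.80 in P4) was lower (-1.84, SE 0.24, adjusted p = 1.7e-06). Zbtb46 was 6.25 in dermal DC, against 4.86, 5.22 and 5.68 in P4, and rose by 0.99 (SE 0.18, adjusted p = 0.00018). Batf3 was 7.70, 7.46 and 7.32 in dermal DC, against 6.09, 6.69 and 6.53 in P4 (1.05, SE 0.28, adjusted p = 0.012), a call lost without dermal DC replicate 1 (adjusted p = 0.064) or P4 replicate 1 (adjusted p = 0.088). Klf4 was 9.24, 9.18 and 9.57 in dermal DC, against its highest level anywhere, 10.01, 9.78 and 9.88, in P4 (-0.56, SE 0.17, adjusted p = 0.029). The Klf4 call was lost without dermal DC replicate 1 or 2 (adjusted p = 0.11 and 0.14), P4 replicate 1 or 3 (adjusted p = 0.12 and 0.069), with the covariates (adjusted p = 0.11) and when only these populations were fitted (adjusted p = 0.079).

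Other factors separated dermal DC from P4 too, where 10 of 29 rose and 1 fell. Nr4a3, a nuclear receptor gene, rose by 3.08 (SE 0.30), Runx3 by 1.76 (SE 0.21) and Bcl11a, which acts in DC and B cell development and was within background in P4, by 2.36 (SE 0.28), while Maf, a macrophage factor, was lower (-3.48, SE 0.35). Of 15 macrophage core genes 13 fell, with a median of -2.47, and of 20 conventional DC core genes 14 rose, with a median of 1.90, against a median of 0.04 over all genes. Between P5 and P4, 0 of 8 members were called by limma, against 0.492% of all genes, and 2 had an unadjusted p under 0.05. Zbtb46 was 5.72, 5.88 and 5.91 in P5, against 4.86, 5.22 and 5.68 in P4 (0.58, SE 0.18, adjusted p = 0.21), and 0.80 with adjusted p = 0.037 without P4 replicate 3.

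After DNFB, the calls were in Irf4, Irf8 and, in P2 alone of the 4 populations, Bcl6. In P1, 0 of 8 were called by limma, against 0.637% of all genes, and 1 had an unadjusted p under 0.05. That was Irf4, at 4.16 and 4.98 after DNFB, against 5.67, 5.21 and 6.53 at steady state (-1.23, SE 0.32, adjusted p = 0.073). Without steady-state P1 replicate 2, the array with the high fibroblast mean, it was -1.53 (adjusted p = 0.02), and with the covariates -1.24 (adjusted p = 0.04). The P1 arrays after DNFB lay below those at steady state, and both of them, like steady-state replicate 2, were within the background range.

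In P2, 3 of 8 members were called, against 2.02% of all genes. Irf4 was 6.22, 5.61 and 6.19 after DNFB, against 8.19, 7.03 and 7.73 at steady state, and fell by 1.65 (SE 0.29, adjusted p = 0.00098). Irf8 was 7.68, 8.09 and 7.63 after DNFB, against 7.00, 6.73 and 5.82 at steady state, and rose by 1.28 (SE 0.24, adjusted p = 0.0022). The arrays of each gene did not overlap, and the directions were opposite. With the covariates the Irf8 call was lost (adjusted p = 0.075), and when only these populations were fitted neither gene passed (Irf4 adjusted p = 0.11, Irf8 adjusted p = 0.20).

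Bcl6 was the other member to fall in P2, at 7.93, 7.65 and 7.58 after DNFB, against 8.95, 8.69 and 8.60 at steady state (-1.02, SE 0.26, adjusted p = 0.027). Its call was lost without DNFB replicate 2 or 3 (adjusted p = 0.11 for each) and without steady-state replicate 1, 2 or 3 (adjusted p = 0.12, 0.069 and 0.052). It was also lost with array medians centred (adjusted p = 0.06), with the covariates (adjusted p = 0.053) and when only these populations were fitted (adjusted p = 0.072). The Bcl6 means after DNFB were lower in P1, dermal DC and node DC as well, by 0.45 to 0.66, with no call in any of them.

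In dermal DC, 2 of 8 members were called, against 4.16% of all genes. Irf4 was 7.69, 7.56 and 7.89 after DNFB, against 8.70, 8.60 and 9.01 at steady state, and fell by 1.06 (SE 0.29, adjusted p = 0.028). The call was lost without DNFB replicate 1 or 2 (adjusted p = 0.096 and 0.11) and without steady-state replicate 1 or 3 (adjusted p = 0.064 and 0.13), with differences from -0.94 to -1.10. Irf8 was 7.28, 7.65 and 7.31 after DNFB, against 5.84, 6.44 and 5.99 at steady state, and rose by 1.32 (SE 0.24, adjusted p = 0.00064). As in P2, Irf4 was lower and Irf8 higher after DNFB, and Fcgr1 was higher too, by 2.04 between the means given above. Batf3 was 6.72, 6.76 and 6.65 after DNFB, against 7.70, 7.46 and 7.32 at steady state (-0.78, SE 0.28, adjusted p = 0.13), without overlap.

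In node DC, both interferon regulatory factors were higher after DNFB, where 2 of 8 members were called, against 1.34% of all genes. Irf4 was 8.47, 8.18 and 8.57 after DNFB, against 6.68, 7.61 and 7.54 at steady state, and rose by 1.13 (SE 0.29, adjusted p = 0.037). Irf8 was 9.08, 9.37 and 9.61 after DNFB, against 8.44, 8.28 and 8.10 at steady state, and rose by 1.08 (SE 0.24, adjusted p = 0.013). No arrays overlapped in either gene. The Irf4 call was lost without DNFB replicate 1, 2 or 3 (adjusted p = 0.15, 0.057 and 0.14), without steady-state replicate 1 or 3 (adjusted p = 0.30 and 0.053), with array medians centred (adjusted p = 0.082) and when only these populations were fitted (adjusted p = 0.11). The Irf8 call was lost without DNFB replicate 3 (adjusted p = 0.086) or steady-state replicate 3 (adjusted p = 0.081).

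The test of the difference itself compared the DNFB effect in node DC with that in dermal DC, where 1 of 8 members was called, against 1.31% of all genes. For Irf4 the effects were 1.13 in node DC and -1.06 in dermal DC, and differed by 2.20 (SE 0.40, adjusted p = 0.0025), which ranked 103 by size among all genes. Batf3 showed 0.64 in node DC and -0.78 in dermal DC (difference 1.42, SE 0.40, adjusted p = 0.073), with adjusted p = 0.0098 under array weights and 0.0038 when only these populations were fitted. For the DNFB effect in dermal DC minus that in P2, 0 of 8 members were called by limma, against 0.251% of all genes, and 0 had an unadjusted p under 0.05. The difference between the effects in P2 and P1 was not tested.

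**Figure D2:**
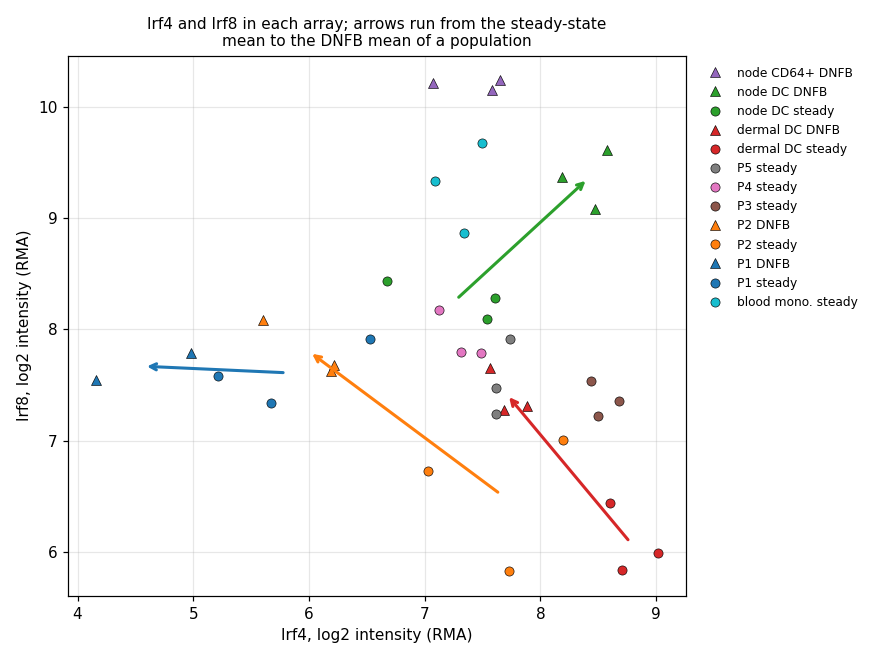
Log2 RMA intensity of Irf8 (y axis) against Irf4 (x axis) in each of the 38 arrays, coloured by population, triangles after DNFB and circles at steady state. Arrows join the steady-state mean to the DNFB mean. The arrow of node DC points up and right (Irf4 1.13, Irf8 1.08), and those of P2 and dermal DC up and left (Irf4 -1.65 and -1.06, Irf8 1.28 and 1.32).

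**Figure D3:**
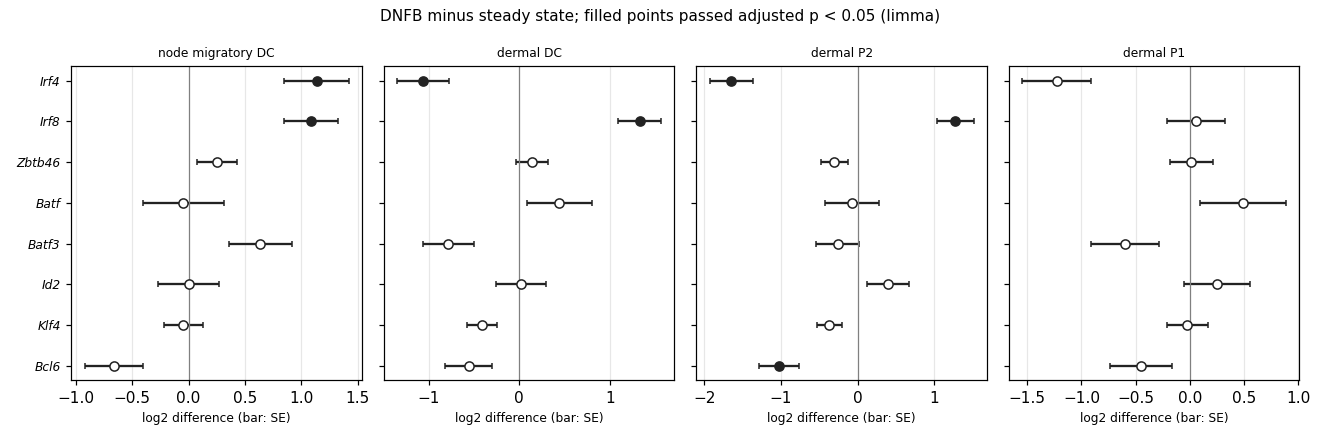
Log2 difference (x axis, DNFB minus steady state, bars are SE) of the 8 members (y axis) in 4 populations, filled where adjusted p was under 0.05 (limma). Irf8 is filled on the right in node DC, dermal DC and P2, and Irf4 is filled on the right in node DC and on the left in dermal DC and P2.

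Genes reported to need Irf4 or Klf4 were lower in P2 after DNFB in 3 of 7 cases. Ccl17 (-4.31, SE 0.30), Mgl2 (-2.36, SE 0.35) and Ccl22 (-1.83, SE 0.35) fell, and 0 of 7 rose. Of the 8 T cell and innate lymphoid cell genes, Il7r, Cd2 and Gata3 fell in P2 after DNFB (list mean 5.07 to 5.69 after DNFB, against 5.80 to 6.40 at steady state), whereas in dermal DC Cd3d, Cd3g and Cd5 rose and Cd2 fell (6.01 to 6.50 after DNFB, against 5.68 to 6.18 at steady state). Their part in the Irf4 and Irf8 differences was not tested. In dermal DC Ccl17 fell by 1.47 (SE 0.30) and Ccr7 rose by 1.05 (SE 0.27), and in node DC Ciita, the master regulator of MHC class II genes, rose by 2.01 (SE 0.27). Between dermal DC and P2 after DNFB all 7 rose, with a median of 2.06 against 0.01 over all genes. In that comparison 2 of 8 members were called, against 3.38% of all genes. Irf4, at the values given above, was higher in dermal DC than in P2 by 1.71 (SE 0.29, adjusted p = 0.00024). Zbtb46 was 6.30, 6.27 and 6.60 in dermal DC, against 5.62, 4.84 and 5.16 in P2, and rose by 1.18 (SE 0.18, adjusted p = 5e-05).

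Node DC were next set against dermal DC. At steady state 5 of 8 were called, against 20.3% of all genes, and after DNFB 4 of 8, against 17.5%. The tissues differed in digestion as well (collagenase 2 and an Optiprep gradient for nodes, dispase with collagenase 4 and a Percoll gradient for ear skin), so tissue and digestion cannot be told apart, and the Itgam level of the node DC was within background as given above.

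Irf8 was 8.44, 8.28 and 8.10 in node DC at steady state, against 5.84, 6.44 and 5.99 in dermal DC, 4.54-fold higher (2.18, SE 0.24, adjusted p = 2.9e-08). After DNFB it was 9.08, 9.37 and 9.61 in node DC, against 7.28, 7.65 and 7.31 in dermal DC (1.94, SE 0.24, adjusted p = 2.8e-07). Irf4 was 6.68, 7.61 and 7.54 in node DC at steady state, against 8.70, 8.60 and 9.01 in dermal DC (-1.50, SE 0.29, adjusted p = 0.00019). Irf8 was thus higher in the node in both states, whereas Irf4 was lower there at steady state. After DNFB Irf4 was 8.47, 8.18 and 8.57 in node DC, against 7.69, 7.56 and 7.89 in dermal DC (0.70, SE 0.29, adjusted p = 0.10), with adjusted p = 0.017 under array weights and 0.012 when only these populations were fitted.

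The related genes Batf and Batf3 went opposite ways. Batf3 was 8.90, 8.67 and 8.60 in node DC at steady state, against 7.70, 7.46 and 7.32 in dermal DC (1.23, SE 0.28, adjusted p = 0.0014, and adjusted p = 0.055 with the covariates). After DNFB it was 9.58, 9.20 and 9.31 in node DC, against 6.72, 6.76 and 6.65 in dermal DC, 6.28-fold higher (2.65, SE 0.28, adjusted p = 1.7e-08). Batf was 6.10, 6.95 and 6.69 in node DC at steady state, against 8.35, 8.01 and 7.97 in dermal DC (-1.53, SE 0.36, adjusted p = 0.0018). All Batf arrays of node DC were thus below, and all Batf3 arrays above, those of dermal DC. After DNFB Batf was 6.21, 6.68 and 6.72 in node DC, against 8.67, 8.38 and 8.61 in dermal DC (-2.01, SE 0.36, adjusted p = 7.6e-05).

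Across all populations, Batf was lowest in node DC (6.54 after DNFB and 6.58 at steady state), then 7.63 in node CD64+ cells, and lay between 7.69 in P4 and 8.55 in dermal DC and P1 after DNFB elsewhere. Batf3 was highest in node DC (9.36 after DNFB and 8.72 at steady state), then 8.38 in node CD64+ cells, 7.74 in P3 and 7.49 in dermal DC, and lowest in P1 after DNFB (6.14). Over the 13 means their correlation was r = -0.82 (Spearman -0.65). Batf was highest in replicate 1 in 5 of the 6 steady-state dermal populations, by as much as 8.57 against 7.24 and 7.29 in P5. Bcl6 was highest in replicate 1 in 5 of the 6 as well, and Irf4 in 4, and which chip batch held which array is not given in the sources used here.

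Klf4 was the member with the clearest split between tissues. It was 6.61, 7.00 and 6.79 in node DC at steady state, against 9.24, 9.18 and 9.57 in dermal DC, 5.77-fold lower (-2.53, SE 0.17, adjusted p = 1.1e-12). After DNFB it was 7.09, 6.62 and 6.56 in node DC, against 8.76, 8.80 and 9.19 in dermal DC (-2.16, SE 0.17, adjusted p = 3.6e-11). Blood monocytes, which were not digested from a tissue by the listed protocol, had 8.90, 8.58 and 8.84. The low values were thus in node cells alone among the populations measured. Blood monocytes are another cell type, so their level cannot tell tissue from digestion. Keratinocytes also express Klf4, which followed the keratinocyte mean with r = 0.78 over the 38 arrays. Both Klf4 calls held in all 16 alternative runs, including the fit with the keratinocyte and fibroblast means as covariates. The differences in these runs were -2.63 to -2.37 at steady state and -2.33 to -1.99 after DNFB. The part of the keratinocyte mean was not tested beyond that fit.

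AP-1 genes, which encode the JUN and FOS partners of BATF proteins, are also known to respond to tissue dissociation, and they moved with Klf4. Of 7, 6 fell and 0 rose in node DC against dermal DC at steady state, with a median of -1.33 against 0.05 for all genes, and 6 fell and 1 rose after DNFB (median -1.07 against 0.04). Fosl2 (-3.13, SE 0.26), Fosl1 (-3.00, SE 0.29), Fosb (-2.32, SE 0.26) and Jund (-1.33, SE 0.14) fell at steady state, and Jun, the exception, rose after DNFB (0.93, SE 0.22). Fosl1 was within background in all node arrays, so its differences are not exact. Per array, the mean of the 7 genes was 7.81 to 8.49 in node arrays, 8.68 to 8.94 in blood and 9.08 to 10.0 in dermis, and over the 38 arrays it followed Klf4 with r = 0.95 and Batf with r = 0.58, which share tissue and digestion. Their part in the Klf4 and Batf differences was not tested.

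**Figure D4:**
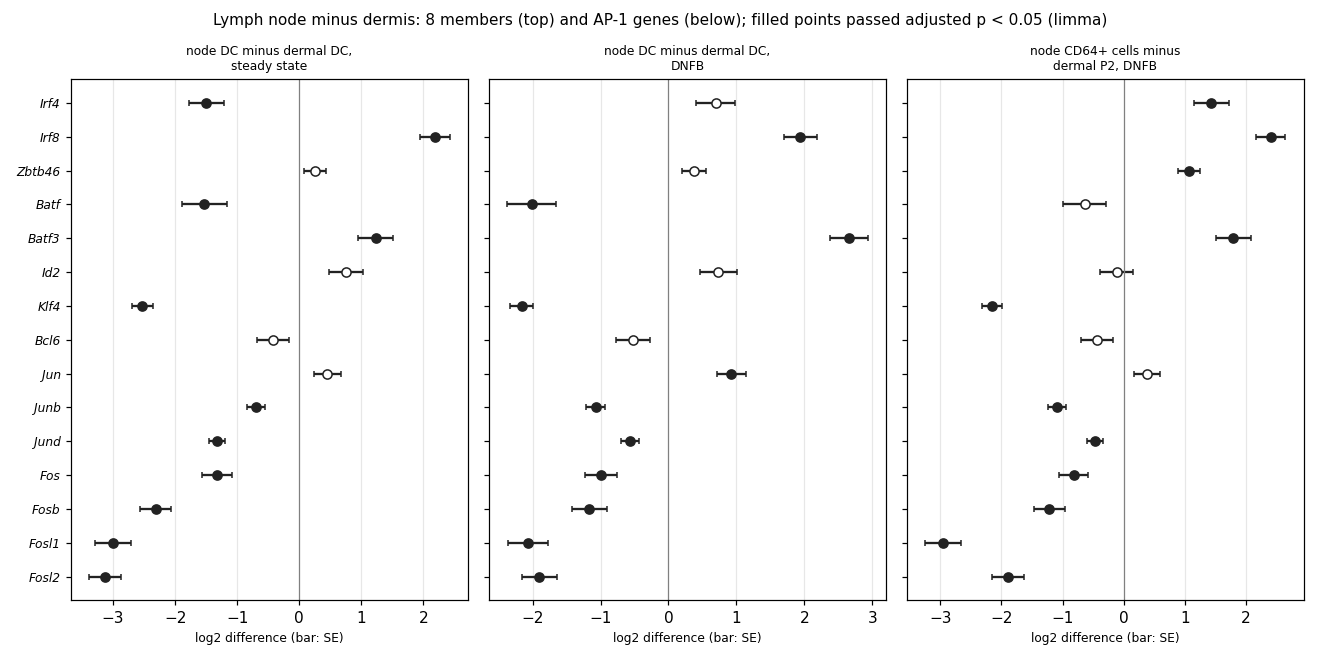
Log2 difference (x axis, lymph node minus dermis, bars are SE) of the 8 members and 7 AP-1 genes (y axis) in 3 comparisons, filled where adjusted p was under 0.05 (limma). Klf4 and 6 of the 7 AP-1 genes are filled left of 0 in each panel, and Irf8 and Batf3 are filled right of 0 in each.

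Id2 and Zbtb46 did not pass between node and dermal DC in the main fit. Id2 was 10.98, 10.74 and 10.91 in node DC at steady state, against 10.14, 10.30 and 9.94 in dermal DC, without overlap (0.75, SE 0.27, adjusted p = 0.051), and 0.73 (SE 0.27, adjusted p = 0.065) after DNFB. Id2 passed in 6 of 16 alternative runs at steady state and in 4 of 16 after DNFB. Zbtb46 differed by 0.26 at steady state and 0.37 after DNFB (adjusted p = 0.18 for the second). With the covariates Zbtb46 was 0.75 (limma adjusted p = 0.038) at steady state and 0.66 (adjusted p = 0.017) after DNFB. Id2 was called in 0 of the 18 comparisons of the main fit, and its means lay between 9.78 and 10.87 in all populations other than blood monocytes. Bcl6 was called in 1 comparison and its lowest means were in the node, at 7.28 in CD64+ cells and 7.49 in DC after DNFB.

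Of the 29 other DC and macrophage factors, 5 rose and 12 fell in node DC against dermal DC at steady state, with a median of -0.45 against 0.05 over all genes, and 6 rose and 13 fell after DNFB. Spib, an ETS family gene, rose by 3.84 (SE 0.37) at steady state, where dermal DC had 4.19 to 5.65, and 3.26 (SE 0.37) after DNFB, and Relb, an NF-kB subunit gene of mature DC, by 2.33 (SE 0.28) and 2.31 (SE 0.28). Cebpb, a factor of monocytes and macrophages, was lower (-2.57, SE 0.21 and -1.73, SE 0.21), as was Nfil3 (-1.72, SE 0.21 and -1.83, SE 0.21), which is needed for cDC1 in mice. These genes thus changed in the same direction in both states.

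Genes that mouse work ties to Irf8 and Batf3 in cDC1 were examined in the comparisons where these factors were called. Xcr1 and Clec9a, the defining cDC1 markers, had means of 3.00 to 3.74 in every population, within background. Of 11 genes of that list measured, 0 rose and 4 fell in node DC against dermal DC at steady state (median -0.25 against 0.05 over all genes), and 0 rose and 5 fell after DNFB. In node CD64+ cells against node DC, where Irf8 was higher and Batf3 lower, 5 rose and 0 fell (median 0.56 against -0.07). There 12 of 15 macrophage core genes rose too. The mean of the 11 genes was highest in P3 (6.01), P5 (5.99) and P4 (5.93). It was lowest in node DC, at 4.34 at steady state and 4.23 after DNFB. The list thus did not mark cDC1 here, and the part of Irf8 in the rises was not tested. In dermal DC after DNFB 2 of the list rose, both within background, and 3 fell. The falls in node DC at steady state were in Naaa, Rab7b (-4.01, SE 0.33), Cd36 (-3.88, SE 0.55) and Wdfy4 (-3.07, SE 0.29), which is needed for cross-presentation. Among genes reported to need Irf4 or Klf4, 2 rose and 3 fell in the same comparison, with Ccl22 up by 2.00 (SE 0.35) and Ccr7 by 1.48 (SE 0.27), and with Mgl2 down (-8.13, SE 0.35), Cd209a (-6.50, SE 0.30) and Ciita (-1.78, SE 0.27). Mgl2 (3.33 to 3.81), Cd209a (4.12 to 4.77), Rab7b, Cd36 and Wdfy4 were within background in node DC at steady state, so these differences are not exact.

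The node CD64+ cells were set against node DC after DNFB, where 3 of 8 members were called, against 4.82% of all genes. Irf8 was 10.15, 10.24 and 10.22 in CD64+ cells, against 9.08, 9.37 and 9.61 in node DC (0.85, SE 0.24, adjusted p = 0.033). Irf4 was 7.58, 7.65 and 7.07 in CD64+ cells, against 8.47, 8.18 and 8.57 in node DC (-0.98, SE 0.29, adjusted p = 0.043). Batf3 was 8.55, 8.94 and 7.66 in CD64+ cells, against 9.58, 9.20 and 9.31 in node DC (-0.98, SE 0.28, adjusted p = 0.035). CD64+ cells had more Irf8 and less Irf4 and Batf3, without overlap, but each call was lost when single arrays were left out.

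Without CD64+ replicate 3, the array that stood apart, Batf3 was -0.62 (adjusted p = 0.40), Irf4 -0.80 (adjusted p = 0.30) and Irf8 0.84 (adjusted p = 0.13). Without CD64+ replicate 1 the adjusted p was 0.051 for Batf3, 0.065 for Irf4 and 0.068 for Irf8, and without replicate 2 Irf8 had adjusted p = 0.088. Without DNFB node DC replicate 1, 2 or 3 the adjusted p was 0.18, 0.061 and 0.064 for Batf3 and 0.14, 0.059 and 0.12 for Irf4, and without replicate 1 or 2 it was 0.20 and 0.092 for Irf8. Irf8 had adjusted p = 0.054 with quantile normalization, Irf4 0.076 with array medians centred, and Batf3 0.051 with the covariates and 0.17 when only these populations were fitted. Batf was 7.18, 7.28 and 8.42 in CD64+ cells, the last in replicate 3, against 6.21, 6.68 and 6.72 in node DC (1.09, SE 0.36, adjusted p = 0.082).

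Between these node cells 12 of 15 macrophage core genes rose in the CD64+ cells, with a median of 3.74, and 0 of 20 conventional DC core genes were called by limma, with a median of -0.58, against a median of -0.07 over all genes. The mean of the 20 genes was 7.32 to 8.42 in CD64+ arrays, against 8.37 to 8.67 in node DC arrays. Cebpa, a factor of myeloid progenitors, rose by 1.65 (SE 0.17), Zeb2 by 1.31 (SE 0.15), Maf, within background in node DC, by 1.96 (SE 0.35) and Batf2 by 1.42 (SE 0.32), and 5 of 29 other factors rose in all, with 0 falls. AP-1 genes gave 0 calls of 7 here, and Klf4 was 7.06, 6.44 and 6.60 in CD64+ cells, against 7.09, 6.62 and 6.56 in node DC. Both of these node populations had the same digestion.

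Against dermal P2 after DNFB, the CD64+ Ly6C high cells of the skin, 5 of 8 members were called in node CD64+ cells, against 12.6% of all genes. Irf8 was 10.15, 10.24 and 10.22 in CD64+ cells, against 7.68, 8.09 and 7.63 in P2, 5.30-fold higher (2.41, SE 0.24, adjusted p = 9.7e-09). Irf4 was 7.58, 7.65 and 7.07 in CD64+ cells, against 6.22, 5.61 and 6.19 in P2 (1.43, SE 0.29, adjusted p = 0.00053), and 0.80 with the covariates (adjusted p = 0.39). Both factors were higher in the node cells, without overlap. Batf3 was 8.55, 8.94 and 7.66 in CD64+ cells, against 6.37, 7.11 and 6.28 in P2 (1.79, SE 0.28, adjusted p = 1.9e-05).

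Zbtb46 was 6.31, 6.50 and 5.99 in CD64+ cells, against 5.62, 4.84 and 5.16 in P2 (1.07, SE 0.18, adjusted p = 4.8e-05). Klf4 was 7.06, 6.44 and 6.60 in CD64+ cells, against 8.55 to 9.02 in P2 (-2.16, SE 0.17, adjusted p = 8.5e-11). The AP-1 list had 6 falls of 7 and a median of -1.09, against -0.02 over all genes, with Fosl1 at -2.95 (SE 0.29) and Junb at -1.09 (SE 0.15). Among genes reported to need Irf4 or Klf4, 5 of 7 rose, with Ccl17 up by 5.78 (SE 0.30) and Ccl22 by 5.49 (SE 0.35), and Cd209a fell (-3.69, SE 0.30). The 5 calls remained when any 1 array was left out.

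Over the 144 pairs of member and comparison there were 39 calls, while 0.251% to 20.3% of all genes were called per comparison. The comparisons share populations and the members were chosen with earlier results known, so this tally is a description. Irf4 and Irf8 had 12 each of 18, with 7 rises and 5 falls for both, Batf3 5, Klf4 4, all of them falls, Zbtb46 3, all rises, Batf 2, both falls, Bcl6 1 and Id2 0.

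The genes whose 13 population means were most like those of a member, by Pearson r among 7347 genes spanning at least 1 log2 unit, were Guk1 (0.93), Ids and H2az2 for Irf4, and Tor4a (0.95), Gbp3 and Mkln1 for Irf8. For Zbtb46 they were Adam23 (0.96), Ccl22 (0.96) and Paics (0.95), for Batf Jarid2 (0.96), Nme1 and Hyou1, and for Batf3 Rftn1 (0.97), Capsl and Nostrin. For Id2 they were Mpp5 (0.96), Ttc39b and Marcksl1, for Klf4 Runx1 (0.98), Ahnak and Adam15, and for Bcl6 Sptbn1 (0.90), Stim2 and Glud1. These are descriptions over 13 means that share normalization, tissue and digestion. Among the members themselves the strongest positive correlation was Zbtb46 with Batf3 (r = 0.75) and the strongest negative ones Batf with Batf3 (-0.82), Batf3 with Klf4 (-0.82) and Id2 with Bcl6 (-0.74).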

How the data were processed

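Gene expression was measured on 38 Affymetrix Gene 1.0 ST arrays from 5 to 20 ng of RNA of 5000 to 10000 sorted cells. Per the submitters' processing notes, the authors turned the scans into log2 intensities with RMA and affy, whose versions are not given in the sources used here, and deposited 1 value per probe set and array. Probe sets with 1 symbol were kept (21640 of 34760), and the one with the highest mean was taken per gene. A mean per population was fitted to all 13 populations with limma 3.58.1 in R 4.3.3 (25 residual and 3.13 prior degrees of freedom), giving 18 contrasts, each adjusted over 19937 genes. Groups came from the titles. Named genes are the members, up to 4 genes per list with the smallest adjusted p in a comparison, sort markers, and the 3 genes most like each member. The fit was tested on simulated data. The members and lists were chosen with earlier results of these data known. Over all genes, the deviations of same-numbered replicates correlated at -0.26 to 0.35 (47 pairs). The highest value, 0.35, was in node DC against dermal DC after DNFB. For Batf and Bcl6, replicate 1 was the highest in 5 of the 6 steady-state dermal populations, as given above. Alternatives were other normalizations, filters, variance models, covariates, blocks and single arrays left out. Ly6C genes lie on probe sets of more than 1 symbol and were not used. Precision is limited by the number of arrays.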

Additional observations from a re-analysis of the deposited data

Results flagged for a closer look

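The DNFB effect on Irf4 differed between node migratory DC and dermal DC by a test of the difference itself. Irf4 was higher after DNFB in node DC (1.13) and lower in dermal DC (-1.06), and the difference of 2.20 (SE 0.40) had an adjusted p of 0.0025 in limma, with n = 3 arrays in each of the 4 populations. All 3 arrays after DNFB lay above all 3 at steady state in node DC, and below them in dermal DC. The difference passed in every alternative run, including each single array left out. Digestion, gradient and tissue were the same within each of the 2 effects. The source-name numbers of the steady-state and DNFB arrays differed in part, and which chip batch held which array is not given. Itgam RNA in node DC was within background, against their CD11b+ label, and Fcgr1 was higher after DNFB in dermal DC. The part of these in the difference was not tested.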

How the results depend on the processing

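Of the 39 calls, 20 held in every alternative run and 19 were lost in at least 1, with no reversal. The count of members called stayed within 1.5 times under quantile normalization, with low genes left out and with an intensity trend and robust variances. The same held with the mean of all probe sets and with the source-name number as a random block. Each member is read by 1 probe set, so the mean of all probe sets could not change its values. The source-name block had a correlation of 0.0033, so that run nearly repeated the main fit. Neither run was thus a test of the calls, though both count among the alternative runs. Same-numbered samples are tied by number alone in the labels. With a replicate block 142 of 144 results kept their side of the threshold. The 2 others were Id2 in node DC against dermal DC, at 0.75 (adjusted p = 0.03) at steady state and 0.73 (adjusted p = 0.038) after DNFB. With array medians centred, DNFB in node DC gave 1 call instead of 2. With array weights there were 8 calls instead of 4 for node DC against dermal DC after DNFB, 5 instead of 3 for node CD64+ cells against node DC, and 2 instead of 1 for the difference of DNFB effects between node and dermal DC. When only the compared populations were fitted, which leaves fewer arrays to estimate the spread, the counts were 2 instead of 1 for that difference, 0 instead of 3 for DNFB in P2, 1 instead of 2 for DNFB in node DC, 0 instead of 2 for P2 against P1 and 0 instead of 1 for dermal DC against P3. With the keratinocyte and fibroblast means as covariates they were 1 instead of 0 for DNFB in P1, 1 instead of 3 for DNFB in P2, 0 instead of 2 for P1 against blood monocytes, 2 instead of 1 for dermal DC against P3 and 1 instead of 2 for dermal DC against P5. With single arrays left out, the counts ranged from 0 to 1 for DNFB in P1, 1 to 2 for DNFB in dermal DC, 0 to 2 for DNFB in node DC, 1 to 2 for P2 against P1, 0 to 1 for P3 against P2 and for P5 against P4, 3 to 5 for dermal DC against P4, 1 to 2 for dermal DC against P5 and 0 to 2 for node CD64+ cells against node DC. The cause was not tested. Signal over background limits Zbtb46.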
